A study of Mus musculus with 4 samples.

Results

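The cells described here form the olfactory neuronal lineage of the embryonic mouse nose, from Neurog1- and Neurod1-positive progenitors to immature neurons, and 147 of 13739 retained cells met the rule that selects them. Cells were retained where 500 or more genes were detected and mitochondrial genes took no more than 10% of the UMIs (unique molecular identifiers, each counting 1 captured transcript). A retained cell was selected on measured values: at least 1 of Gng8, Lhx2, Neurog1, Neurod1 and Insm1, at least 4 of these 5 genes together with Gap43, Stmn2, Stmn4, Tubb3 and Crmp1, and no Sox10 UMI. Whole noses were taken at embryonic day 14.5, and droplet-based 3′ single-cell RNA sequencing gave 2 control and 2 mutant libraries. The protocol names 2 noses of each genotype and does not say which nose went into which library. The mutants carried the Sox10-cre transgene Tg(Sox10-cre)1Wdr with floxed Yap and floxed Taz (gene symbol Wwtr1). The series design gives them both Taz alleles floxed and only 1 Yap allele floxed, so a wild-type Yap allele remained. The controls are called WT with the C57Bl/6J strain in the sample labels, whereas the series design describes them as homozygous for both floxed alleles without Cre, and this disagreement could not be settled here. In this order, control 1, control 2, mutant 1 and mutant 2 contributed 49, 24, 33 and 41 of the selected cells, out of 4075, 2474, 2995 and 4195 retained cells.

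The olfactory epithelium makes sensory neurons throughout life. Basal progenitors expressing the proneural factors Neurog1 and Neurod1 divide and give rise to immature neurons that extend axons, marked by Gap43 and Gng8, and each neuron comes to express a single odorant receptor gene from a very large family before it matures and expresses Omp. YAP and TAZ are transcriptional coactivators of the Hippo pathway that bind DNA through TEAD factors, and Sox10-cre acts in neural crest derivatives, including the ensheathing glia of the olfactory nerve.

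The label was checked with 9 neuronal genes that the rule did not use: the RNA-binding proteins Elavl3, Elavl4 and Celf3, the cytoskeletal genes Dcx, Stmn3 and Ina, the transcription factors Nhlh1 and Nhlh2, and Rtn1. Of the 147 cells, 107 carried at least 3 of the 9, and by library these were 40, 10, 27 and 30 cells. The other 40 cells carried fewer than 3 of the 9. Of these, 32 carried at least 3 of 7 mesenchymal genes such as Col1a2 and Col3a1, which went against the label. Another 7 were positive for the epithelial adhesion gene Epcam, and 1 matched neither. Epcam itself did not go against the label, because most neuronal cells also had it. The 40 cells included 5 of the 12 cells placed as progenitors below. The 4 of these with at most 20000 UMIs all had UMIs of Ebf2 and Sox11, which are outside the rule. Of the 32 mesenchyme-marked cells, 29 met the rule with just 4 of its 10 genes. Control 2 held 12 of these 32 cells, so 10 of its 24 selected cells had neuronal markers. The grouping by neuronal genes and a limit of 20000 UMIs per cell were both chosen after the data were seen. Of the 107 neuronal cells, 82 had at most 20000 UMIs, with a median of 7216, and 25 had more, with a median of 45808. The deep cells carried a mixed set of markers: Epcam was detected in 100% of them, the stem and supporting cell factor Sox2 in 92%, the supporting cell enzyme gene Cyp2g1 in 52%, and Mki67 or Top2a in 76%. In the 82 shallower neuronal cells the same shares were 81.7%, 9.76%, 3.66% and 13.4%. These shares were taken at unequal depth. With cells thinned to 2000 UMIs each, Mki67 or Top2a was detected in 7 of 25 deep cells (28%) and 6 of 79 shallower ones (7.6%). The shares of Epcam, Sox2 and Cyp2g1 were not compared at equal depth. Cells over 20000 UMIs gave 73.1%, 27.5%, 50.8% and 61.8% of all UMIs of the selected cells in the 4 libraries, so summed values lean on them. Scrublet, which scores each cell against simulated droplets of 2 cells, gave the deep neuronal cells a median score of 0.0679 and the shallower ones 0.0751, and 3 of the 25 and 6 of the 82 were among the highest scores removed as an alternative.

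**Figure D1:**
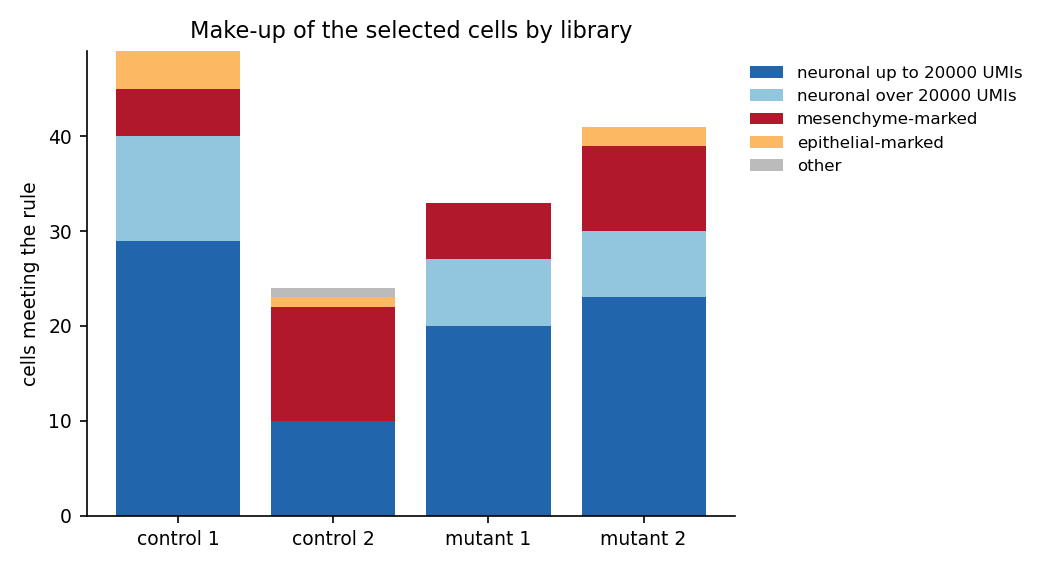
Number of selected cells in each library (vertical axis), stacked by the markers they carry outside the rule. Mesenchyme-marked cells make up 12 of the 24 cells of control 2, which has no neuronal cell over 20000 UMIs.

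Cells at the edge of the rule were mostly not neuronal. Among the 47 cells with just 4 rule genes, 23.4% carried the independent neuronal genes, and Col1a2 was detected in 63.8%. Just outside it, 150 cells had 3 rule genes including at least 1 of the required 5, of which 3.33% were neuronal and 86.7% had Col1a2. From 6 rule genes upwards, all 81 cells were neuronal. Another 31 retained cells carried the neuronal genes without meeting the rule. Gnrh1, the hormone of migrating gonadotropin-releasing neurons, and Tfap2e, a vomeronasal neuron factor, had 0 UMIs in all 147 cells.

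Levels are given as CPM, the UMIs of a gene summed over cells and scaled to a common total. Gng8, a G protein gamma subunit of immature olfactory neurons, stood at 296, 393, 724 and 370 CPM in control 1, control 2, mutant 1 and mutant 2, against 8.92 to 10.3 CPM in all other retained cells. Because Gng8 is in the rule, this is a description without a test, as are all contrasts of the selected cells with other cells. Outside the rule, Fstl5, which encodes a secreted follistatin-like protein, led by the lowest log2 ratio over the 4 libraries. It reached 929, 546, 2194 and 691 CPM, against 3.39 to 4.97 CPM elsewhere, a log2 ratio of 5.38 to 7.20. The next genes were Myt1l, a zinc finger factor of neurons (4.59 to 6.09), Stmn3, a stathmin that acts on microtubules (4.28 to 6.02), Arhgdig (4.24 to 5.51) and Rtn1 (4.05 to 5.40). The 25 leading genes also held the early B-cell factor Ebf2, the homeobox gene Uncx, the basic helix-loop-helix factor Nhlh2, the G protein subunit gene Gng13 and the stress-response factor Atf5, which olfactory neurons use when they begin to express receptors. All 25 were higher than in other cells in every library, which the way they were chosen fixes.

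The RefSeq table (GRCm38.p6) held windows for 21 of the 25 leading genes, among 27025 in all. Each window is the 250 bases before the start of the gene in that table, and for 17 of the 21 this start lies within 100 bases of the start of the GENCODE gene. For 18 of 20 receptor genes described below it lies more than 1000 bases inside the GENCODE gene, so their windows are not described. Both strands were searched for CAGATG (an E-box of proneural factors), CCCNNGGG (a core of Ebf sites) and TAATTA (a homeodomain core, the class of Lhx2). CAGATG was present in 6 of the 21 windows, against 14.5% of all windows in the table. CCCNNGGG was present in 5 of the 21, against 11.7%, and TAATTA in 1 of the 21, or 4.76%, against 4.90%. In the 17 windows near the GENCODE start these counts were 5, 3 and 0. Myt1l and Gng13, whose starts differ by at most 1 base between the annotations, are shown as examples of CAGATG and CCCNNGGG, with capitals marking the matches; a match is a run of letters and not a measured binding site.
Myt1l, chr12:29528134-29528383, plus strand, match on the reverse strand: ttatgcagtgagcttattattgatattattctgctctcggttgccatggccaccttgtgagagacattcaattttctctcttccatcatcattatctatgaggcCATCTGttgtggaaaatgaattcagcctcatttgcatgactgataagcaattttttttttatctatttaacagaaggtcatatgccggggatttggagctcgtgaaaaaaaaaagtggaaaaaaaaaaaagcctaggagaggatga
Gng13, chr17:25716922-25717171, plus strand: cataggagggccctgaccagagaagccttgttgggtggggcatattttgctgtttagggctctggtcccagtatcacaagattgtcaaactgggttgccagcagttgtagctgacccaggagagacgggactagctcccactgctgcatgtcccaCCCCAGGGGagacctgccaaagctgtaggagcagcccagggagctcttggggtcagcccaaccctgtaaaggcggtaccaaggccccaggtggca

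The order from progenitor to neuron was set by comparing Neurog1 plus Neurod1 UMIs with Gap43 plus Stmn2 UMIs in each cell. Progenitors numbered 6, 2, 0 and 4 in the 4 libraries, neurons 42, 22, 33 and 36, and 2 cells could not be placed. Neurog1 or Neurod1 was detected in 23 cells, of which 11 were already neurons by this measure. Of the placed cells, 6 lay within 1 UMI of the border. Genes were ranked by their lowest ratio of progenitor to neuron levels over the 3 libraries that had both stages. Apart from Neurod1, which set the order, Hes6, a partner of proneural factors, and Dach1, a nuclear cofactor, led this ranking. Hes6 stood at 1156, 882 and 1452 CPM in progenitors of control 1, control 2 and mutant 2, against 154, 109 and 176 CPM in neurons. Dach1 stood at 483, 529 and 631 CPM against 75.9, 102 and 53.5 CPM. Cep152, a centriole duplication gene, the GDNF receptor gene Gfra1, the Notch coactivator gene Maml3 and the Notch modifier gene Mfng were also higher in the progenitors of all 3 libraries. Neurons were higher in Fstl5, the retinoic acid binding protein gene Crabp1, Gng13, Stmn3 and the calcium-binding protein gene Tesc. Fstl5 stood at 1039, 580 and 722 CPM in neurons, against 44.9, 0 and 0 CPM in progenitors. The progenitor sums rest on 2 to 6 cells a library, and 7 of the 12 progenitors carried the independent neuronal genes, 4 in control 1 and 3 in mutant 2. In control 2, neither progenitor and 10 of the 22 neurons carried them. Of all 133 neurons by this order, 34 did not carry them, namely 6, 12, 6 and 10 cells in the 4 libraries. With neuronal genes required in both stages, Hes6 stood at 557 and 1019 CPM in the progenitors of control 1 and mutant 2, against 148 and 195 CPM in their neurons. Dach1 stood at 758 and 741 CPM against 81.2 and 63.6 CPM, and Fstl5 at 0 and 0 CPM against 1167 and 917 CPM. The other progenitor and neuron genes named here kept their direction in both of these libraries.

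Of the 116 selected cells with at most 20000 UMIs, the 82 with neuronal genes were placed in 4 steps, chosen after the data were seen. The steps were 6 progenitors, 10 transitional cells with Neurog1 or Neurod1 but neuronal by the order, 50 neurons without a dominant receptor gene and 16 neurons with one, meaning at least 10 UMIs of 1 receptor. The 50 include 1 cell that the order could not place. The 6 progenitors came from control 1 and mutant 2, with 3 cells each. The 34 cells without neuronal genes, 4 of them progenitors, were left out. The 10 rule genes and the 9 neuronal genes chose these cells, and the receptor counts and the order divided them, so the levels of those genes are no findings here. Hes6 went along the steps from 800.2 to 494, 221 and 94.9 CPM, and the 4 progenitors left out held 1133 CPM. Among the genes that chose the cells, Lhx2, Nhlh2 and Elavl4 were at 2317, 784 and 2385 CPM in transitional cells. Atf5 went from 0 to 477, 1078 and 2222 CPM. Gfy, an olfactory Golgi protein gene, went from 0 to 102, 168 and 623 CPM, and Omp, the marker of mature olfactory neurons, from 0 and 0 to 35.6 and 122 CPM. Omp was detected in similar shares of the last 2 steps, 10 of 50 and 4 of 16 cells. In the last step 1 cell held 8 of its 18 UMIs. The channel subunit gene Cnga2 was at 0, 0, 12.7 and 74.5 CPM, and the receptor transport gene Rtp1 at 0, 0, 30.5 and 115 CPM.

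**Figure D2:**
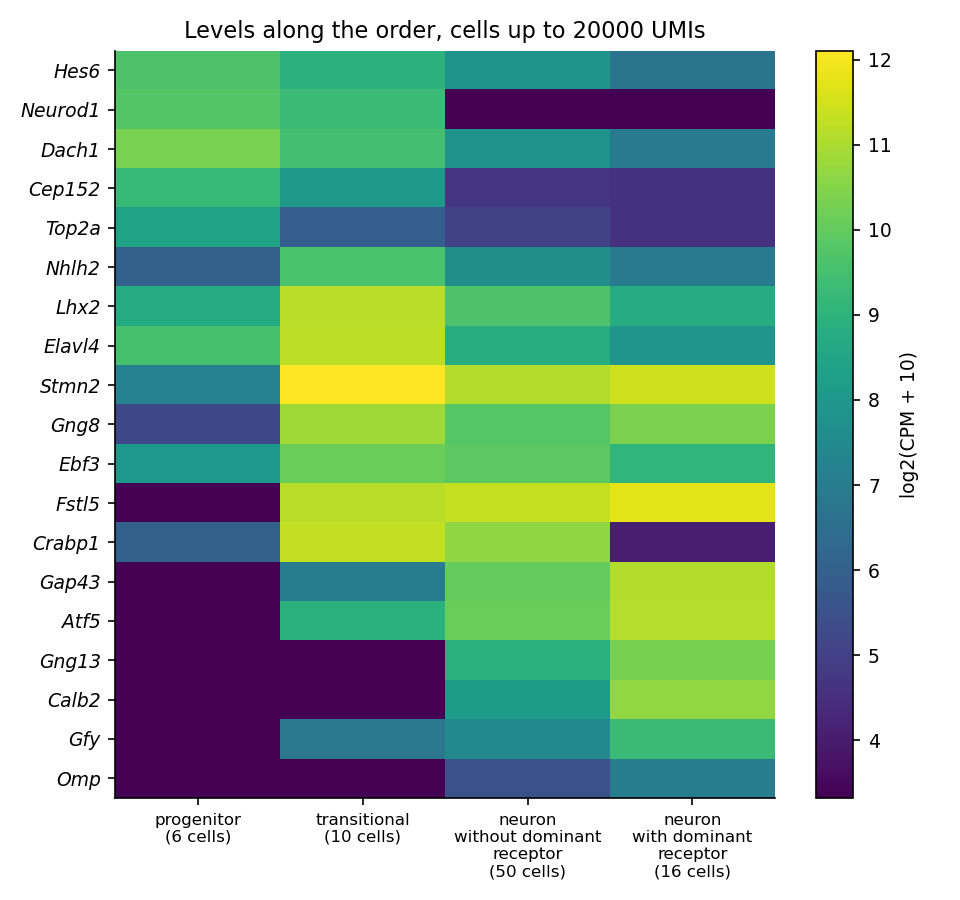
Level of 19 genes as log2(CPM + 10) (colour) in 4 steps of the order, each column the sum of the cells given under it, all libraries together. Hes6 and Cep152 are highest in progenitors, and Atf5, Calb2, Gfy and Omp in neurons with a dominant receptor gene, where Crabp1 is near the floor.

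Of 15 proliferation genes, 13 had their highest level of the 4 steps in the 6 progenitors, and Ccnb2 and Aurkb had 0 UMIs there. Mki67 or Top2a was detected in 4 of the 6 progenitors, in 1 of 10 transitional cells, in 4 of 50 neurons without a dominant receptor and in 2 of 16 neurons with one. It was also detected in all 4 progenitors without neuronal genes. The replication gene Pcna was at 303.5, 51.1, 45.8 and 47.4 CPM along the steps. The Notch receptor gene Notch1 and the Notch target gene Hes5 had 2 UMIs each in the 6 progenitors and 0 UMIs in each later step. Axon guidance genes were not uniform. The netrin receptor gene Dcc went from 3008 to 664, 346 and 61.0 CPM, and the 4 progenitors without neuronal genes held 377.5 CPM. By contrast, the semaphorin coreceptor gene Nrp1 went from 27.6 to 17.0, 147 and 210 CPM, where 27.6 and 17.0 CPM are 1 UMI each.

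Receptor expression was strongly uneven within cells. The files list 1483 odorant, trace amine and vomeronasal receptor genes, and Olfr1369-ps1 was set aside after the data were seen because it had 1613 UMIs in other cells. Of the 107 neuronal cells, 72.9% had a UMI of another receptor gene, against 25% of the 40 selected cells without neuronal genes, 15.1% of all other retained cells and 23.3% of epithelial cells. A single receptor reached at least 10 UMIs in 29 selected cells, and all 29 were neuronal. These 29 cells used 28 different receptors from 10 chromosomes, with Olfr263 leading in 2 cells of mutant 1. The leading receptor had 13 to 83 UMIs, with a median of 28. It made up at least 90% of the receptor UMIs in 21 of the 29 cells and was the only receptor found in 12.

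The strongest examples came from several libraries. In mutant 1, Olfr24 (GRCm38 chromosome 9, 18751507 to 18763996) had 83 UMIs in 1 cell and Olfr1240 (chromosome 2, 89436296 to 89443000) had 65 UMIs in another, and neither cell held any other receptor UMI. In mutant 2, Olfr166 had 48 UMIs alone, and in control 1, Olfr951 had 42 and Olfr523 had 38 UMIs alone. Pseudogenes also dominated cells: Olfr104-ps had 37 UMIs in a control 1 cell and Olfr329-ps had 28 UMIs in a mutant 2 cell. Only 3 of the 29 cells had a second receptor of at least 10 UMIs. They paired Olfr1123 (52 UMIs) with Olfr124 (45 UMIs), Taar2 (45 UMIs) with Olfr671 (42 UMIs), and Olfr689 (48 UMIs) with Olfr1512 (21 UMIs), in cells of 19740, 23743 and 49512 UMIs. In 3 further cells the second receptor was a neighbour, as for Olfr1030 (24 UMIs) and Olfr1031 (5 UMIs), whose starts lie 11.0 kb apart; reads shared between similar or adjacent genes cannot be told apart in these counts.

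**Figure D3:**
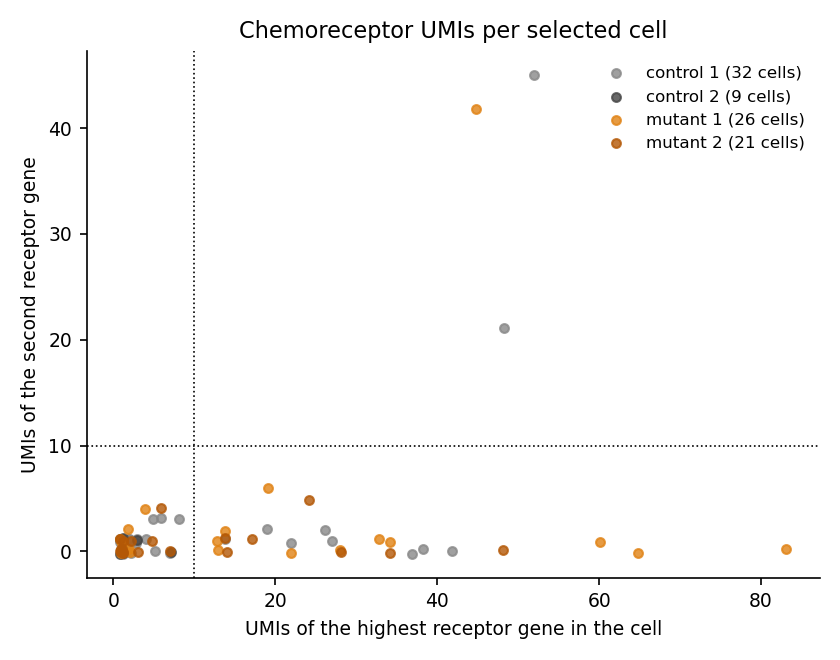
UMIs of the highest (horizontal axis) and second (vertical axis) receptor gene in each selected cell with a receptor UMI, coloured by library and shifted slightly to separate points; dotted lines mark 10 UMIs. The 29 cells right of the vertical line include 3 above the horizontal line, and none comes from control 2.

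A different pattern was seen in 13 neuronal cells, which had 4 to 14 receptor genes and none above 6 UMIs. The clearest were a mutant 1 cell with 11 receptor genes and 21 receptor UMIs, and a mutant 2 cell with 14 genes and 25 UMIs. The first had 14892 UMIs in all. The second had 49504 and also held UMIs of Cyp2g1, Mki67 and Epcam, like other deep cells. Of the 13 cells, 4 had over 20000 UMIs, as had 13 of the 29 cells with a dominant receptor. By library, cells with a dominant receptor were 10 of 40, 0 of 10, 12 of 27 and 7 of 30 neuronal cells. As shares these were 25%, 0%, 44.4% and 23.3%, with exact 95% intervals of 12.7 to 41.2, 0 to 30.9, 25.5 to 64.7 and 9.93 to 42.3%. The 10 neuronal cells of control 2 allow a share of up to 30%. The difference of 21.4 percentage points between mutant and control means had an exact two-sided permutation p of 0.667, where 0.333 is the smallest p that 2 against 2 libraries can give. Outside the selected cells, 10 cells reached 10 UMIs of a receptor; 8 of these were for Olfr655 or Vmn1r54, and the other two, with Olfr812 and Olfr1264, carried 5 and 3 of the 9 neuronal genes.

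Crabp1 was high in neurons without a dominant receptor and near 0 in those with one. Among neurons up to 20000 UMIs it was detected in 34 of the 50 cells without a dominant receptor and in 1 of the 16 with one, at 1 UMI. In the cells without a dominant receptor it stood at 1084, 1827, 1586 and 2117 CPM in the 4 libraries. In cells with one it stood at 0, 15.8 and 0 CPM in control 1, mutant 1 and mutant 2. Calb2, a calcium buffer gene picked outside the gene lists, went the other way. It stood at 542, 161, 169 and 192 CPM without and 2348, 1170 and 913 CPM with a dominant receptor. Gfy had UMIs in 29 of 50 and 16 of 16 of these cells. Crabp1, Calb2 and Gfy differed in the same direction in each of the 3 libraries with both kinds of cell. Median depth was 7074 UMIs without and 8838 UMIs with a dominant receptor, and its part in these differences was not tested.

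The genes floxed in the mutants were scarcely detected in the neurons. Among the 82 neuronal cells up to 20000 UMIs, Yap1 had 1 UMI in 635886, or 1.57 CPM, and its exact 95% counting interval of 0.0253 to 5.57 UMIs covers counting error only. By library this was 5.03, 0, 0 and 0 CPM. Elsewhere Yap1 was at 65.4, 65.4, 57.0 and 56.8 CPM in all other retained cells and at 79.8, 76.6, 54.6 and 43.0 CPM in epithelial cells. The 25 deep neuronal cells held 57 of the 91 Yap1 UMIs of the selected cells, at 47.9 CPM. Wwtr1 had 8 UMIs in the 82 cells, at 0, 43.0, 4.87 and 21.6 CPM by library. It was at 121 to 146 CPM in other cells, but at 49.0 CPM in the epithelial cells of all libraries together. Tead1, a DNA-binding partner of both, was not low: the 82 cells held 261 CPM, against 239 CPM in other cells. The other partners were lower, Tead2 at 23.6 against 89.8 CPM, Tead3 at 6.29 against 22.9 CPM and Tead4 at 0 against 2.56 CPM. Ccn2, a classic YAP and TAZ target, had 1 UMI in them, at 1.57 CPM, against 28.5 CPM in other cells. Along the 4 steps Yap1 had 0, 0, 0 and 1 UMIs, and the 4 progenitors without neuronal genes held 3 UMIs. Counts from 3′ ends do not show whether an internal exon was removed, so they check no deletion.

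**Figure D4:**
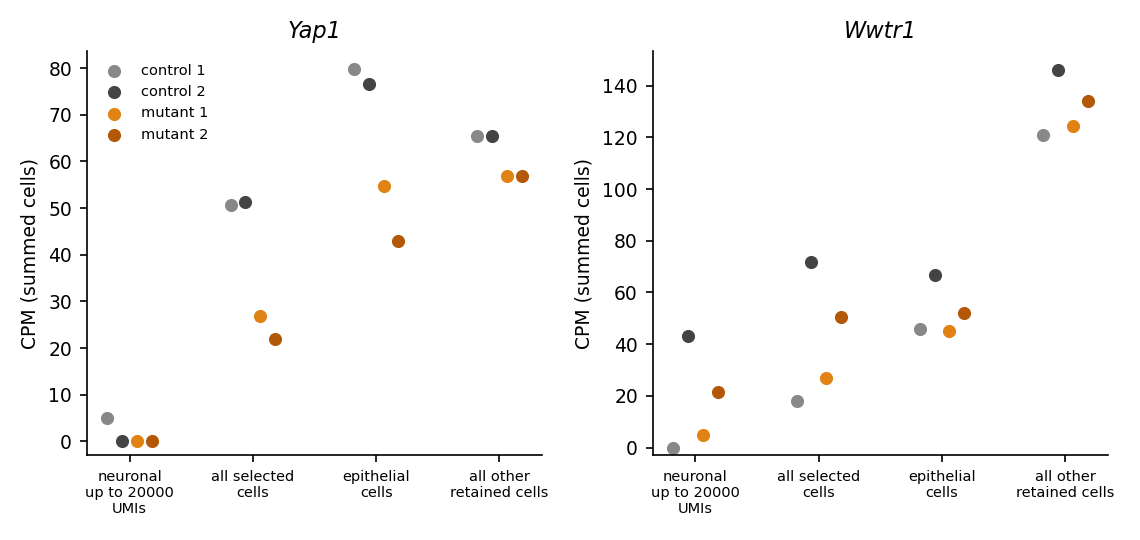
Yap1 (left) and Wwtr1 (right) in CPM, 1 point a library, in 4 sets of cells. Yap1 is at 0 to 5.03 CPM in neuronal cells up to 20000 UMIs and at 43.0 to 79.8 CPM in epithelial cells.

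The first comparison of genotypes asked whether the lineage made up a different share of the nose. Selected cells were 1.20%, 0.970%, 1.10% and 0.977% of retained cells in control 1, control 2, mutant 1 and mutant 2, with exact 95% intervals of 0.891 to 1.59, 0.623 to 1.44, 0.760 to 1.54 and 0.702 to 1.32%. Mutant values lay within the range of the controls (difference of means -0.0467 percentage points, exact two-sided permutation p = 1). With neuronal genes also required, the shares were 0.982%, 0.404%, 0.902% and 0.715%, and both mutant libraries again lay between the controls. Progenitors were 12.2%, 8.33%, 0% and 9.76% of the selected cells (exact permutation p = 0.667), and the 0 of 33 in mutant 1 allows a share of up to 9.09%. Cycling cells were 42.9%, 33.3%, 24.2% and 43.9% (exact permutation p = 1). In cells thinned to 2000 UMIs that still met the rule they were 7.69%, 0%, 0% and 10.0% of 26, 6, 17 and 20 cells. None of these differences could be distinguished from the spread between libraries, and their direction changed with the choice of cells or with leaving out a library.

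The second comparison asked which genes differed by genotype within the lineage, using counts summed per library. No gene of 8368 passed an adjusted p of 0.05 in edgeR's quasi-likelihood test, so 0% were called, and 90 genes (1.08%) had an unadjusted p under 0.05, 49 higher and 41 lower in mutants. DESeq2 called 1 gene, Ccl21a, with 310 UMIs in control 2 and 0 in each other library. Leaving out control 1 gave 26 called genes, and testing without a filter on low counts gave 90. In the neuron stage alone, 0% of 8311 genes were called and 1.12% had an unadjusted p under 0.05; leaving out control 1 gave 424 calls and leaving out control 2 gave 29. Progenitors were too few for a fit. Relative to the change in 735 epithelial cells, 0% of 11018 genes were called and 1.59% had an unadjusted p under 0.05; there, leaving out control 1 gave 95 calls and leaving out control 2 gave 4, in Penk, Dmkn, Sostdc1 and Six3os1.

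**Figure D5:**
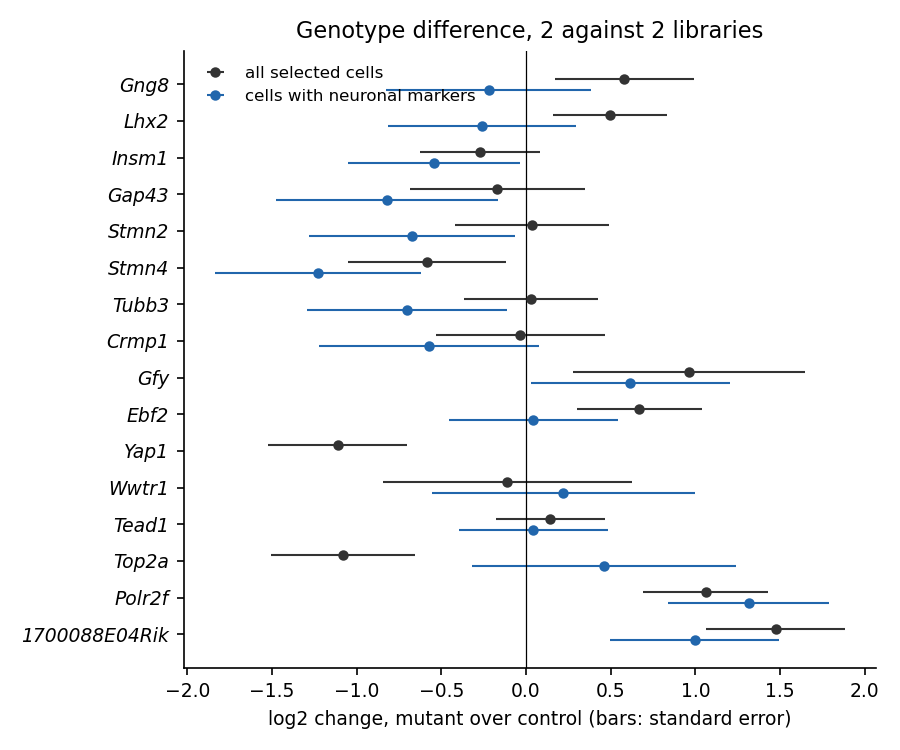
Log2 change of 16 genes between mutant and control libraries, with standard errors, in all selected cells (black) and in those with neuronal markers (blue; Yap1 was too low to be tested there). No gene passes the adjusted threshold, and Top2a lies on opposite sides of 0 in the 2 sets.

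Gene groups showed no called member in all selected cells. Of 22 cytoskeletal and RNA-binding neuronal genes tested, 17 had positive log2 changes with a median of 0.19, but in the 107 neuronal cells 0 of 22 were positive and the median was -0.46, against medians of -0.0043 and 0.022 over all genes tested. The 15 proliferation genes likewise had a median of -0.30 in all selected cells and 0.61 in the neuronal cells. Dcx, Stmn3, Elavl3, Elavl4, Rtn1, Ina and Celf3 are both among the 22 genes and among the 9 that chose the neuronal cells. The change of sign in the 22 genes is therefore no finding about genotype. Summed over 7 genes, all 7 being detected, mesenchymal markers were 527, 3018, 775 and 1174 CPM in the selected cells. The 22 cytoskeletal and RNA-binding genes summed to 10072, 10718, 15115 and 8845 CPM there. The part of the mesenchymal markers in the differences was not tested. In the neuronal cells, the 15 proliferation genes summed to 1351, 107, 909 and 1992 CPM, with overlapping groups, and 6 epithelial markers to 1874, 333, 1826 and 2098 CPM; the 10 neuronal cells of control 2 include none over 20000 UMIs. The part of these markers and cells in the differences was not tested. Genes of sensory maturation had a median of 0.79 over 6 tested in all selected cells, 0.60 over 9 in the neuronal cells and 0.12 over 4 in the neuronal cells up to 20000 UMIs. Gfy, one of them, stood at 110, 23.9, 226 and 67.7 CPM, with overlapping groups.

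Yap1 and Polr2f did not overlap between the groups, though neither passed the adjusted threshold. Of all 8368 genes tested, 14% lay above the controls in both mutant libraries and 11.4% below them in both. Yap1 stood at 50.7 CPM in control 1, 51.2 CPM in control 2, 26.8 CPM in mutant 1 and 22.0 CPM in mutant 2 (log2 change -1.11, SE 0.41, unadjusted p = 0.0282 and adjusted p = 1 in edgeR). Of its 91 UMIs, 57 came from deep neuronal cells and 23 from mesenchyme-marked cells. Polr2f, an RNA polymerase subunit gene, stood at 174 and 184 against 314 and 458 CPM (log2 change 1.06, SE 0.37, adjusted p = 1 in edgeR). Polr2f belongs to a list of 4 genes beside Sox10 on chromosome 15, and in all other retained cells it stood at 200 and 191 against 374 and 348 CPM. The 3 genes of that list that could be tested, Polr2f, 1700088E04Rik and Eif3l, all had positive log2 changes, of 0.76 to 1.47. Of all 8368 genes tested, 4139 had positive log2 changes. The list was chosen with earlier results of these data known, so the shared direction of its genes is no independent support.

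Restricted to the 82 neuronal cells up to 20000 UMIs, 2 of 3588 genes (0.0557%) passed the adjusted threshold in edgeR and 2.84% had an unadjusted p under 0.05. Gstm1, a glutathione transferase gene, had 3, 1, 62 and 65 UMIs in the 4 libraries (log2 change 4.75, SE 0.56, adjusted p = 0.0109). The cell cycle gene Ccnd1 had 0, 0, 28 and 40 UMIs (adjusted p = 0.0461 in edgeR). Its mutant level was 19.2-fold above a floor of 3 UMIs over both controls. That floor covers counting error only and is no lower bound here, because 1 mutant cell held 24 of the UMIs. Each call rested on few cells: Gstm1 was detected in 3 of 29, 1 of 10, 2 of 20 and 2 of 23 cells, and Ccnd1 in 0, 0, 3 and 5 of the same cells. Gstm1 stood at 1739, 751, 1935 and 1771 CPM in epithelial cells, and its part in the call was not tested. In all selected cells Gstm1 was at 2637, 10.2, 607 and 1878 CPM, with overlapping groups and no call. Ccnd1 was there at 249, 130, 178 and 285 CPM, also overlapping and with no call.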

How the data were processed

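Single-cell UMI counts per gene and cell were deposited by the authors as raw, filtered matrices, made with Cell Ranger 8.0.1 per the file headers, whereas the submitters' processing notes name Cell Ranger 4, Seurat 4.3.0 and mm10. Retained cells and the rule are given above; 68 barcodes recur between libraries, none of them of a selected cell. The members and gene lists were chosen with earlier results of these data known. Cells are not replicates, so counts were summed per library and tested with edgeR 4.0.16 (TMM, filterByExpr, quasi-likelihood, Benjamini-Hochberg adjustment over all tested genes); DESeq2 1.42.0 was an alternative. The protocol names 2 noses of each genotype but not the nose behind each library, and p-values measure only the spread between libraries. Shares used exact permutation tests over libraries and exact Clopper-Pearson 95% intervals, for counting error only. Named genes were those past the threshold, members of the lists, up to 25 leading genes (pseudocount 10 CPM, detected in 20% of cells) and up to 15 stage genes in each direction (pseudocount 50 CPM, detected in 10%). Receptor genes were named by their UMIs. Calb2 falls under none of these and was picked outside the naming rule, so its contrast is a description only. On simulated counts for the member comparison (7929 genes), 65.7% of 99 genes changed 4-fold and 92.9% of 98 changed 8-fold were called. The changed genes were drawn only from genes with higher mean counts, so these shares do not cover low genes. Each simulated gene took the spread of the trend at its level, not its own. The shares therefore need not hold for genes that vary more between libraries. Scrublet's automatic threshold marked only 3 retained cells, so the highest scores were removed as an alternative. The sequencing provider of each library is not given, so batch and genotype cannot be told apart. Some marker genes are not reported here.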

Additional observations from a re-analysis of the deposited data

How the results depend on the processing

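The difference between mutant and control in the share of selected cells was -0.0467 percentage points and was positive in 7 of 11 alternatives: 0.127 with at least 5 rule genes, 0.0366 with the stricter cell filter, 0.0914 thinned to 2000 UMIs, 0.115 with neuronal genes required, 0.0501 with these and at most 20000 UMIs, and -0.163 to 0.0695 leaving out 1 library. The progenitor share difference (-5.41 points) became 8.08 when thinned, 0 with neuronal genes required and 1.35 with these and at most 20000 UMIs, and ran from -10.3 to -0.533 leaving out 1 library. The cycling share difference (-4.02 points) became 5.19 with at least 5 rule genes, 10.1 with neuronal genes required, 5.08 with these and at most 20000 UMIs, and 1.15 when thinned, and ran from -13.8 to 5.81 leaving out 1 library. The cause of these changes was not tested.

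Counts of called genes were 0 in the 3 comparisons. Without a filter on low counts they were 90 in the selected cells, 86 in the neuron stage and 21 relative to epithelial cells; DESeq2 gave 1, 1 and 0. Leaving out 1 library gave 0 to 26 in the selected cells, 0 to 424 in the neuron stage and 0 to 95 relative to epithelial cells, with the lone library of a group assumed to vary like the others. The selected neuronal cells up to 20000 UMIs gave 2. With a replicate block all 3 counts were 0. Same-numbered libraries did not deviate together in the selected cells (correlation -0.0481 over 8368 genes) or in the neuronal cells (-0.306 over 7764 genes). With 2 libraries a group, these correlations cannot show whether same-numbered libraries shared a batch. The sample labels give them only a shared number. Top2a changed sign, to 0.52 with at least 5 rule genes, 0.46 with neuronal genes required and 0.24 with these and at most 20000 UMIs. Yap1, Polr2f and 1700088E04Rik kept their direction in every alternative in which they could be tested. The alternatives by neuronal genes and by 20000 UMIs were chosen after seeing the data. With 24 to 49 cells a library, small differences in share or in low genes were not detectable.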
